A study of Mus musculus with 13 samples.

Results

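The genes described here encode the presynaptic vesicle and its release machinery in mouse brain: 37 listed genes, from the synapsins that tether vesicles to the proteins that take them back after fusion. All 37 were found in the deposited table, each on 1 row. The 35 whose FPKM averaged 1 or more over the 13 libraries were tested, among 13905 genes tested of 37636 listed. FPKM are fragment counts scaled by gene length and by the mapped fragments of the library, so levels can be compared between genes per length. The animals were male Balb/c mice, 6 to 8 weeks old. Con (4 libraries) were kept under normal conditions without 6-OHG. Mod (5 libraries) spent 24 h at 8000 m without 6-OHG, and the group called 6-OHG (4 libraries) had the same exposure and was given the agent 6-OHG. No group was given 6-OHG without the altitude exposure. The labels name neither the brain region nor the dose, and 6-OHG is known here by its code only. Nothing in them says that the libraries of a group came from separate animals, so the p-values measure the spread between these libraries, which may be technical.

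At a chemical synapse, transmitter is loaded into vesicles by transporters in the vesicle membrane, and filled vesicles are held in a cluster near the release site. A scaffold of large proteins, the active zone, brings vesicles and calcium channels together. Priming factors ready the SNARE proteins, calcium binding by synaptotagmins triggers fusion, and the membrane is then recovered by endocytosis for another round.

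Unc13a had the largest fall among the members called, and Pclo and Synj1 the largest rises. They are shown by the 250 bases before their start in RefSeq (build GRCm38.p6), written 5′ to 3′ on the strand of the gene; none of these windows holds an annotated exon of the gene. Unc13a lies on the minus strand (chr8:71671758-71672007), Pclo on the plus strand (chr5:14514668-14514917) and Synj1 on the minus strand (chr16:91011309-91011558). Capitals mark ACGTG, the core of the hypoxia response element, and GGGCGG, the GC box, each searched on both strands; the 2 motifs do not overlap in these windows.
Unc13a: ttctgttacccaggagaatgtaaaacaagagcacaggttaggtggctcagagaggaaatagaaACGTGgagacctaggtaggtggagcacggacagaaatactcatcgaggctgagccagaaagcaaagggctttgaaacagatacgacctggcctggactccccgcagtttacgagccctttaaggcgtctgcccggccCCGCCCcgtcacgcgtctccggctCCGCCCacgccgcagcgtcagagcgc
Pclo: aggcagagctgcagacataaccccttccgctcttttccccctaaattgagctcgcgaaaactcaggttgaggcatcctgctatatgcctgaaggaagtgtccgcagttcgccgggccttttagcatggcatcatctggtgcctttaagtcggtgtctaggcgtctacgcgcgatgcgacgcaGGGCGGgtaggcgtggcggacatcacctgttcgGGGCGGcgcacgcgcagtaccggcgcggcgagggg
Synj1: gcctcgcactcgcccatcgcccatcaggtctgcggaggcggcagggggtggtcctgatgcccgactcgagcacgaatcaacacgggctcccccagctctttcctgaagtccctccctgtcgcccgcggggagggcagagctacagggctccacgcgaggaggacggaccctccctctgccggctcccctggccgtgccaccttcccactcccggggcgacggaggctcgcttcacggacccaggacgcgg
The Unc13a window holds 1 ACGTG, whose first base lies 187 bases before the start, and GC boxes on the opposite strand at 50 and 26 bases before it. The Pclo window holds GC boxes at 68 and 35 bases before the start and no ACGTG. Neither motif is in the Synj1 window shown; a second RefSeq start of Synj1 has a window with 4 GC boxes. Of the 37 members, 31 had a window, and where a gene had several only the first was counted. Tested genes were counted in the same way, but all windows together include several for some genes. Sv2b held ACGTG, and Synj1 and Rph3a the GC box, only in windows that were not counted. ACGTG was found in 8 of the 31 members (25.8%), against 16.6% of all 32817 windows and 22.3% of the windows of 9773 tested genes. The GC box was found in 20 (64.5%), against 32.7% of all windows and 60.2% for the tested genes. Among promoters of genes tested here, the members' shares were thus near the background for both motifs. These matches are descriptions of letters and not binding sites.

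The 35 members ranged from 2.70 to 264 FPKM as means over the 13 libraries. In 12 the mean was over 100 FPKM, in 19 it lay between 10 and 100, and in 4 it was under 10. The highest levels were those of Cplx1, a complexin that clamps and assists SNARE fusion (264 FPKM), Snap25, the SNARE protein of the plasma membrane (261), Vamp2, the main vesicle SNARE of forebrain (216), Syp, the vesicle protein synaptophysin (204), and Dnm1, the neuronal dynamin that cuts endocytic vesicles (192). Just inside the minimum of 1 FPKM were Erc1 (2.70) and Unc13b (2.71). Just outside it were Rph3a, a Rab3 effector (0.961), and Syn3, the third synapsin (0.655). Con replicate 4 and 6-OHG replicate 2 stood apart from the rest of their groups for many members, and counts without them are given beside the values that mark them.

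After 24 h at 8000 m, 4 of the 35 members fell against Con and none rose: Unc13a, Erc1, Syt4 and Syt11. A member is called here when its adjusted p was under 0.05, from limma on log2(FPKM + 1) with Benjamini-Hochberg adjustment over all genes tested. With 6-OHG added to the exposure, 5 members were above Mod (Pclo, Synj1, Syt4, Syt11 and Erc1) and 1, Rab3a, was below it. Against Con, the 6-OHG group had Unc13a and Slc32a1 lower, and Synj1 and Pclo higher. In all, 8 members were called in at least 1 comparison and 27 in none.

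These counts were read against the share of all tested genes. In Mod against Con 11.4% of members were called, against 23.8% of all genes (14% higher and 9.81% lower). In 6-OHG against Mod the shares were 17.1% of members and 15.3% of all genes (6.98% higher and 8.35% lower). In 6-OHG against Con they were 11.4% and 30.7% (16.3% higher and 14.4% lower). With all 13 libraries, the members were thus called less than or about as much as the average gene. The size of the members' changes also stayed small: the median change was -0.08 on the log2 scale in Mod against Con (0.01 for all genes), 0.10 in 6-OHG against Mod (-0.02) and 0.01 in 6-OHG against Con (0.00). The sign was lower in 28 of 35 members in Mod against Con (80%). The share was 47.6% of all genes and 58.2% of the genes with over 8 kb of exons. In 6-OHG against Mod the sign was higher in 28 of 35 members (80%, against 45.9% of all genes and 77.6% of the genes with over 8 kb of exons). Both counts use the same Mod libraries, so they are not independent of each other. Only 14 of the 35 members have over 8 kb of exons. Of these, 12 were lower in Mod against Con and 14 higher in 6-OHG against Mod. In the latter comparison 4 of 5 members with 6 to 8 kb were higher, beside 1110 of all 1730 genes of that length. At 4 to 6 kb it was 6 of 8 members and 1554 of 3060 genes, and at 2 to 4 kb 4 of 8 and 1173 of 3855. Counted by groups that do not overlap, in Mod against Con 4 members lay wholly below (8.87% of all genes) and 1 wholly above (13.5%), in 6-OHG against Mod 5 lay wholly above (7.6%) and 1 wholly below (8.34%), and in 6-OHG against Con 1 lay wholly above (15.6%). At an unadjusted p under 0.05, 1 member was higher and 7 were lower in Mod against Con (2.86% and 20%, against 20.5% and 15.8% of all genes). In 6-OHG against Mod 8 were higher and 2 lower (22.9% and 5.71%, against 13.9% and 16.8%), and in 6-OHG against Con 2 and 4 (5.71% and 11.4%, against 22.2% and 20.2%). All differences are on the log2(FPKM + 1) scale, which understates changes of low genes. In bulk tissue, fewer cells of a type and less RNA per cell cannot be told apart.

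**Figure D1:**
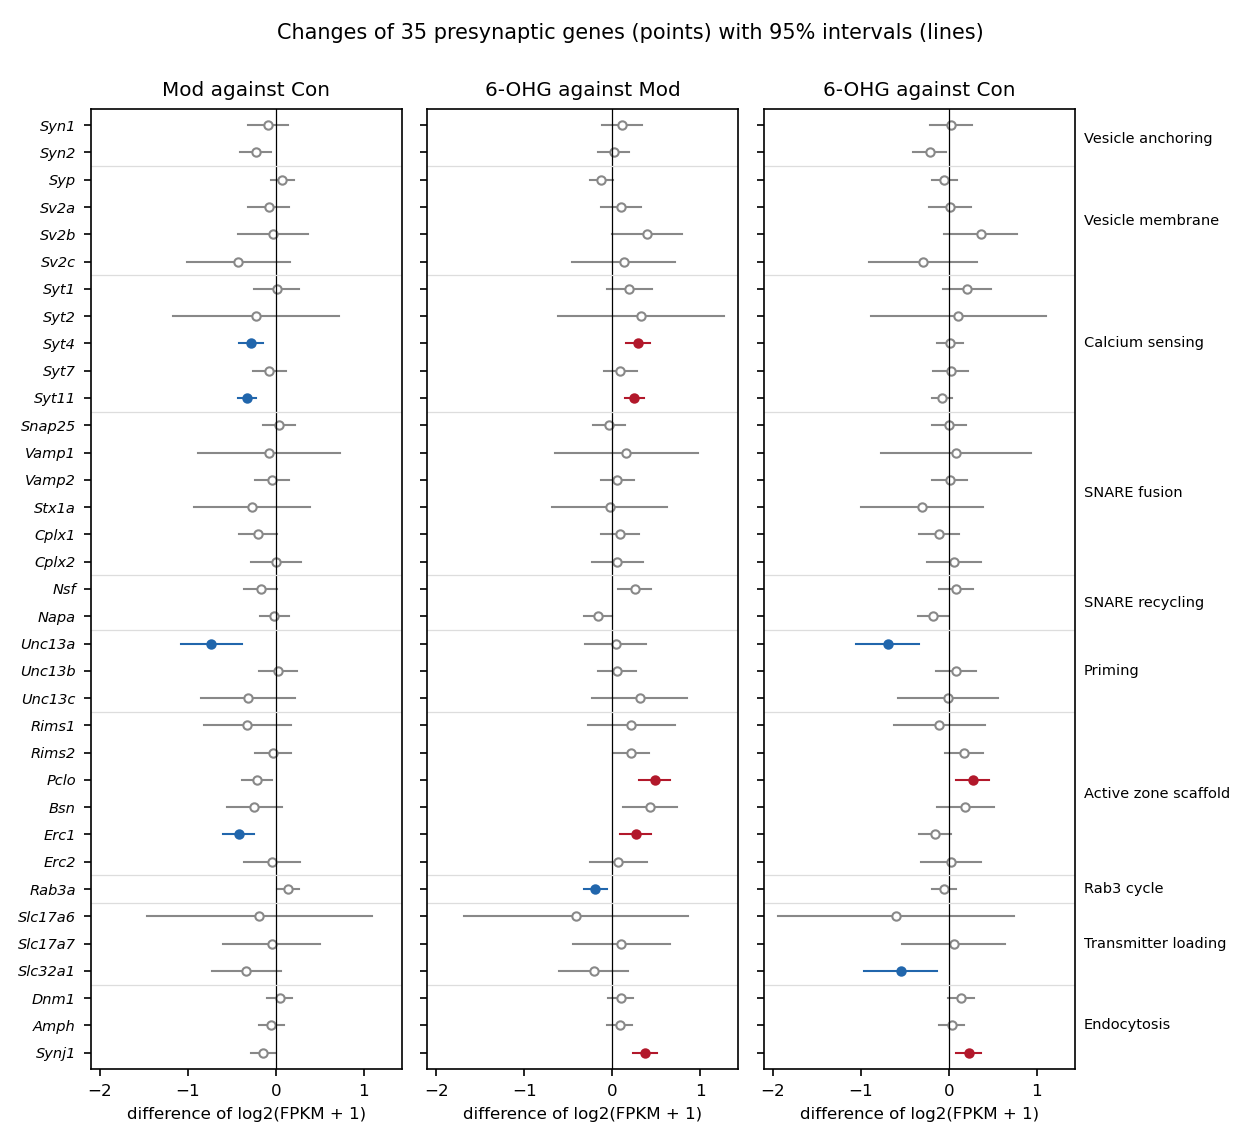
Change of each of the 35 tested members (points, difference of log2(FPKM + 1)) with its 95% interval (line) in the 3 comparisons, grouped by role; filled red points were called higher, filled blue points lower, open grey points not called. There are 4 filled points in the first panel, 6 in the second and 4 in the third, and most intervals cross 0.

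Among the priming factors, which open syntaxin for SNARE assembly, Unc13a moved and its paralogues did not pass the test. Unc13a (Munc13-1; ENSMUSG00000034799, GRCm38 chromosome 8, 71624417 to 71671757) read 30.4, 34.3, 28.3 and 18.8 FPKM in Con, 16.1, 18.1, 15.5, 16.9 and 14.0 in Mod, and 19.2, 12.2, 18.3 and 17.1 in 6-OHG. All 5 Mod libraries lay below the lowest Con library, by a narrow margin, since Con replicate 4 read lower than the rest of its group. The mean fell from 28.0 ± 6.58 (SD, n = 4) to 16.1 ± 1.53 (SD, n = 5), a change of -0.73 (SE 0.16, limma adjusted p = 0.00564). In the 6-OHG group the mean was 16.7 ± 3.11 FPKM, 0.04 from Mod on the log2 scale (95% interval -0.31 to 0.38, limma adjusted p = 0.901) and 0.69 below Con on the log2 scale (-0.69, SE 0.17, limma adjusted p = 0.00787). Here 1 library of the 6-OHG group overlapped Con replicate 4. Both Unc13a calls held in all 27 alternative settings and left-out libraries. Unc13b, the Munc13-2 gene, differed from Con by 0.02 in Mod (95% interval -0.19 to 0.24), and Unc13c, the Munc13-3 gene known from cerebellum, by -0.32 (-0.85 to 0.22). These intervals do not show that the paralogues were the same in both groups.

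Syt4 and Syt11, grouped by role with the calcium sensors, fell in Mod and were higher again in 6-OHG. Both belong to the synaptotagmin family but lack the calcium-binding residues of the fast sensors. Syt11 (ENSMUSG00000068923, chromosome 3, 88744700 to 88775164) read 125, 116, 124 and 123 FPKM in Con, 105, 93.6, 96.4, 96.7 and 94.0 in Mod, and 113, 115, 116 and 118 in 6-OHG. All Mod libraries lay below both other groups. The change was -0.33 in Mod against Con (SE 0.05, limma adjusted p = 0.000481) and 0.25 in 6-OHG against Mod (SE 0.05, limma adjusted p = 0.00493). The 6-OHG group then differed from Con by -0.08 (limma adjusted p = 0.266). Syt4 (ENSMUSG00000024261) read 52.6, 44.2, 50.3 and 47.5 FPKM in Con, 42.2, 36.7, 39.1, 42.4 and 38.8 in Mod, and 52.0, 47.2, 47.6 and 49.5 in 6-OHG. Again no Mod library reached the other groups. Its change was -0.28 (SE 0.06, limma adjusted p = 0.00651) in Mod against Con and 0.29 (SE 0.06, limma adjusted p = 0.00846) in 6-OHG against Mod. Both comparisons share the Mod libraries, so a low Mod value moves both. The fast sensors Syt1 and Syt2 and the slower Syt7 passed the test in no comparison; Syt1 differed by 0.01 in Mod against Con (95% interval -0.25 to 0.27).

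**Figure D2:**
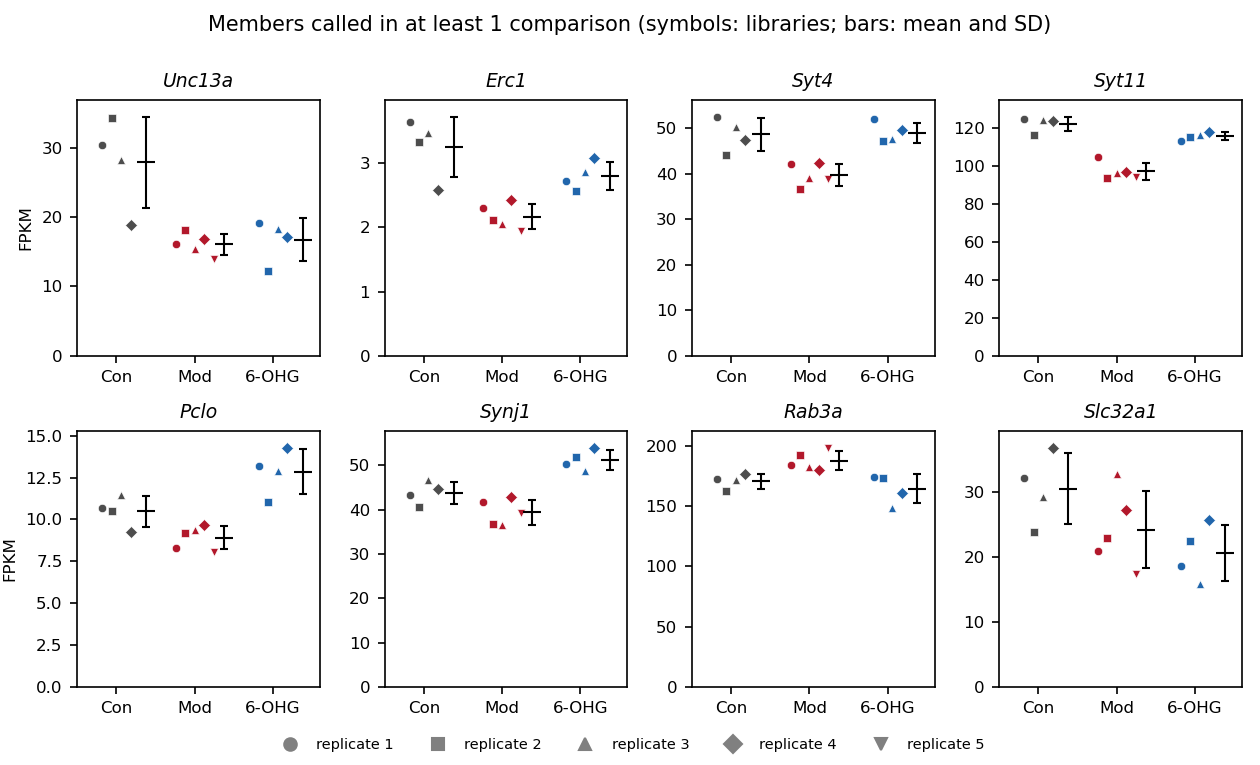
FPKM of the 8 members called in at least 1 comparison, by group; symbols are libraries, shaped by replicate number, and bars are the mean and SD. Syt11 and Syt4 dip in the 5 Mod libraries, Unc13a is low in Mod and 6-OHG, and the 4 Synj1 libraries of the 6-OHG group (48.7 to 54.0 FPKM) are above all others.

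All 6 active zone members tested were lower in Mod than in Con by sign, 1 of them past the test, and all 6 were higher in 6-OHG than in Mod, 2 past the test. These are signs of small differences. Of all genes with over 8 kb of exons, 58.2% were lower in the first of these comparisons and 77.6% higher in the second. Rims1, with 7362 bases of exons, is outside that class. With the trend of change with exon length and GC removed, Rims2 was at 0.0013 in Mod against Con and Erc2 at -0.06 in 6-OHG against Mod, and with thalamus and brainstem markers as a covariate Erc2 was at -0.10 in the latter. Erc1 (ELKS, a scaffold that binds Rim proteins; ENSMUSG00000030172, chromosome 6, 119570796 to 119848167) read 3.64, 3.33, 3.48 and 2.58 FPKM in Con, 2.30, 2.11, 2.06, 2.42 and 1.94 in Mod, and 2.72, 2.57, 2.85 and 3.08 in 6-OHG. Mod was below both groups in every library. The fall from Con was -0.42 (SE 0.08, limma adjusted p = 0.00288) and held in all 26 alternatives. The difference of 0.27 from Mod to 6-OHG (SE 0.08, limma adjusted p = 0.0435) was lost in 14 of 26, and was 0.12 (adjusted p = 0.344) without the length and GC trend. Leaving out Con replicate 2 or 3, Mod replicate 1, 2, 3 or 5, or 6-OHG replicate 1, 3 or 4, 1 at a time, gave adjusted p between 0.0527 and 0.119.

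Pclo, the giant scaffold Piccolo (ENSMUSG00000061601, chromosome 5, 14514918 to 14863459), read 10.7, 10.5, 11.4 and 9.24 FPKM in Con, 8.30, 9.20, 9.34, 9.64 and 8.04 in Mod, and 13.2, 11.0, 12.9 and 14.3 in 6-OHG. All 6-OHG libraries were above all Mod libraries, and 1 overlapped Con. Pclo rose by 0.48 in 6-OHG against Mod (SE 0.08, limma adjusted p = 0.00262) and by 0.27 in 6-OHG against Con (SE 0.08, limma adjusted p = 0.0287). Without the length and GC trend the difference from Mod was 0.26 (limma adjusted p = 0.0292). Its change in Mod against Con was -0.21 (limma adjusted p = 0.0721). The difference from Con was lost when Con replicate 2 or 4 or 6-OHG replicate 1, 3 or 4 was left out, with adjusted p of 0.0539 to 0.0819, and became 0.13 (adjusted p = 0.174) after removal of the trend of change with exon length and GC. Bsn, the gene of the related scaffold Bassoon, read 15.0 to 19.0 FPKM in Mod and 18.9 to 27.1 in 6-OHG, a difference of 0.43 (SE 0.14) whose limma adjusted p of 0.0605 missed the threshold. Rims1, Rims2 and Erc2, a second ELKS gene, passed the test in no comparison.

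Of the endocytic members, Synj1 rose in 6-OHG. It encodes synaptojanin 1, the phosphatase that frees vesicles of their clathrin coat, and lies on chromosome 16 from 90936092 to 91011308 (ENSMUSG00000022973). It read 43.3, 40.6, 46.6 and 44.6 FPKM in Con, 41.7, 36.8, 36.5, 42.8 and 39.2 in Mod, and 50.4, 51.9, 48.7 and 54.0 in 6-OHG. The 4 libraries of the 6-OHG group were the 4 highest of all 13. The difference was 0.37 from Mod (SE 0.06, limma adjusted p = 0.00264) and 0.22 from Con (SE 0.07, limma adjusted p = 0.021), and Mod differed from Con by -0.15 (limma adjusted p = 0.101). Without Con replicate 2 or without 6-OHG replicate 4 the difference from Con had adjusted p of 0.0622 and 0.0581, and without the length and GC trend it was 0.14 (adjusted p = 0.0653). Amph, which encodes amphiphysin, read 31.6 to 40.1 FPKM over all libraries, and Dnm1 168 to 222; neither passed in any comparison.

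Rab3a and Slc32a1 were called once each, near the threshold. Rab3a, the vesicle GTPase (ENSMUSG00000031840, chromosome 8, 70754679 to 70758677), read 172, 162, 172 and 176 FPKM in Con, 185, 193, 183, 180 and 199 in Mod, and 174, 174, 149 and 161 in 6-OHG. Mod was above both other groups in every library. The change was 0.14 in Mod against Con (limma adjusted p = 0.112) and -0.19 in 6-OHG against Mod (SE 0.06, limma adjusted p = 0.0443). The latter kept its sign but passed in 10 of 27 alternatives. It was -0.03 (adjusted p = 0.776) with the length and GC trend removed and -0.04 (adjusted p = 0.670) after quantile normalization. Leaving out Con replicate 1, 2 or 3, Mod replicate 1, 2, 3 or 5, or 6-OHG replicate 3 or 4 gave adjusted p between 0.0506 and 0.118.

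Slc32a1, the vesicular transporter for GABA and glycine (ENSMUSG00000037771, chromosome 2, 158610767 to 158615748), read 32.1, 23.8, 29.2 and 36.8 FPKM in Con, 21.0, 22.9, 32.8, 27.1 and 17.3 in Mod, and 18.6, 22.4, 15.8 and 25.7 in 6-OHG. The groups overlapped, with the lowest Con library below the highest 6-OHG library. The difference in 6-OHG against Con was -0.55 (SE 0.19, limma adjusted p = 0.0452). It passed in 11 of 27 alternatives, and leaving out Con replicate 1, 3 or 4, Mod replicate 1, 2 or 4, or 6-OHG replicate 1, 2 or 3 gave adjusted p of 0.0506 to 0.123. In this comparison 4 of 6 inhibitory neuron markers were lower by sign, 1 of them called, and 2 were higher. All 8 striatal markers were lower by sign and none was called (49.4% of all genes were lower by sign). The striatal sum was 259 to 459 FPKM in Con, 110 to 593 in Mod and 65.1 to 465 in 6-OHG. The part of these markers in the change of Slc32a1 was not tested.

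The members that anchor vesicles and the SNARE machinery passed in no comparison. Syn1 differed by -0.08 in Mod against Con, and Syn2 by -0.23 (limma adjusted p = 0.0610). Snap25 differed by 0.04 in Mod against Con (95% interval -0.15 to 0.22), Vamp2 by -0.04 (-0.23 to 0.14) and Syp by 0.07 (-0.06 to 0.21). The other members of these groups, Vamp1, Stx1a, Cplx1, Cplx2 and Napa, the vesicle membrane genes Sv2a, Sv2b and Sv2c, and the glutamate transporters Slc17a6 and Slc17a7 were not called either. Nsf, the ATPase that takes SNARE complexes apart, read 71.3 to 85.8 FPKM in Mod and 81.7 to 110 in 6-OHG, and its difference of 0.25 had a limma adjusted p of 0.0654. Of the 2 members under 1 FPKM, Rph3a read 1.58, 1.84, 1.65 and 1.21 FPKM in Con, 0.628, 0.769, 0.648, 0.513 and 0.567 in Mod, and 0.833, 0.739, 0.757 and 0.756 in 6-OHG. All Con libraries were above all others. In a fit with no minimum level it was lower in Mod by 0.66 on the log2 scale (-0.66, limma adjusted p = 0.000565) and in 6-OHG against Con (-0.53, limma adjusted p = 0.00216). Syn3 read 0.466 to 0.724 FPKM in Con, 0.417 to 0.729 in Mod and 0.763 to 0.959 in 6-OHG, and its difference of 0.25 between 6-OHG and Mod had a limma adjusted p of 0.108 in that fit.

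**Figure D3:**
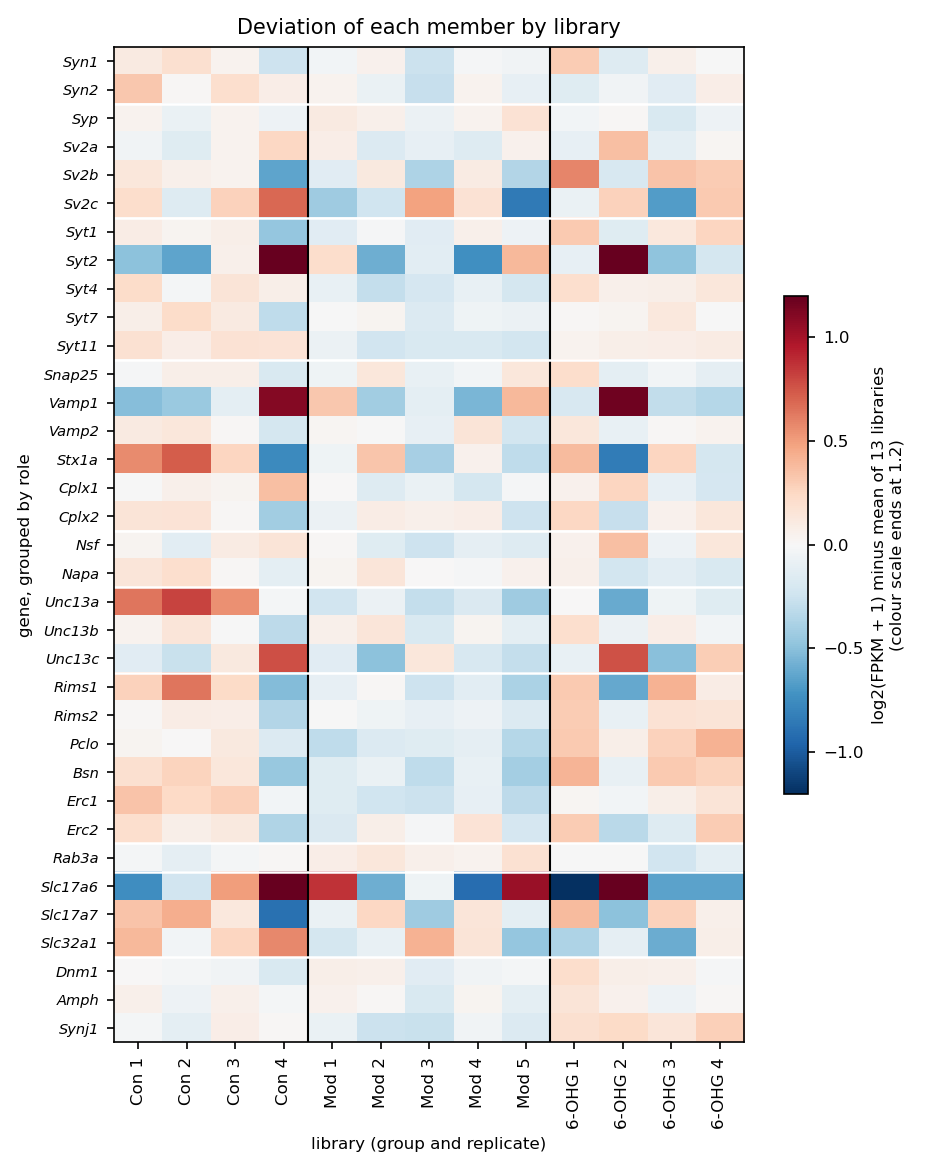
Deviation of log2(FPKM + 1) from the mean of 13 libraries (colour, scale ending at 1.2) for the 35 tested members (rows, grouped by role) in each library (columns, by group). Con replicate 4 and 6-OHG replicate 2 stand apart from their groups in many rows.

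The members did not vary evenly over libraries, and 2 libraries stood apart. In 22 members the coefficient of variation was under 20% in all 3 groups, with Syt11 at 3.13%, 4.56% and 1.69% in Con, Mod and 6-OHG. Con replicate 4 and 6-OHG replicate 2 were both the lowest of their groups for 17 of 35 members and both the highest for 7: Sv2a, Syt2, Vamp1, Cplx1, Nsf, Unc13c and Slc17a6. Slc17a6, the glutamate transporter VGLUT2 known from thalamus and brainstem, read 4.99, 7.57, 13.3 and 27.5 FPKM in Con, 17.3, 5.69, 8.75, 4.33 and 19.7 in Mod, and 2.76, 24.2, 5.47 and 5.46 in 6-OHG. Slc17a7, the cortical VGLUT1, read 167, 178, 144 and 70.4 in Con, 125, 157, 98.1, 146 and 122 in Mod, and 172, 93.4, 160 and 138 in 6-OHG. The pair ran opposite ways in these 2 libraries. Vamp1, the vesicle SNARE of brainstem and spinal cord, reached 43.6 and 45.6 FPKM there and 13.2 to 26.2 in the others.

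The summed level of a list of 8 thalamus and brainstem markers moved with these libraries. It was 31.2, 46.4, 48.8 and 87.0 FPKM in Con, 62.0, 31.2, 47.6, 23.4 and 65.7 in Mod, and 16.9, 70.2, 28.4 and 29.7 in 6-OHG. Slc6a5, the glycine transporter of brainstem and spinal cord, read 2.52 in Con replicate 4 and 5.93 in 6-OHG replicate 2 and at most 0.424 elsewhere. Hoxb5, a hindbrain gene, was listed at 0 in 7 libraries. The 5 markers of the list that were tested did not change alike. In 6-OHG against Mod 1 was called higher (0.50) and 4 were lower by sign, with a median of -0.52 over the 5. In 6-OHG against Con 1 was called higher (0.57), 1 was called lower and 4 were lower by sign (median -0.66). A covariate was added after the data were seen, the mean log2(FPKM + 1) of the 5 markers of this list that averaged 1 FPKM or more. With it, 5, 5 and 3 members were called in the comparisons, in the order used so far (14.3%, 14.3% and 8.57%, against 28.8%, 14.7% and 29.1% of all genes). The members called were not all the same. Pclo was added in Mod against Con (limma adjusted p = 0.0178). In 6-OHG against Mod Erc1 and Rab3a were lost (limma adjusted p = 0.0948 and 0.0685) and Nsf was added (0.0390). In 6-OHG against Con Pclo and Slc32a1 were lost (limma adjusted p = 0.110 and 0.0760) and Napa was added, lower (0.0266). The sum of 10 neuronal markers was 881 to 1033 FPKM in Con, 821 to 896 in Mod and 780 to 989 in 6-OHG. In Mod against Con 1 of the 10 rose and 3 fell, with Tubb3 at -0.65 (limma adjusted p = 0.00237), against 14% and 9.81% of all genes. In the same comparison 3 of 4 markers of oligodendrocyte precursors fell, and their sum was 32.3 to 34.9 FPKM in Con, 16.2 to 23.7 in Mod and 12.9 to 23.0 in 6-OHG. Of 6 endothelial markers 4 rose and 1 fell, with sums of 42.2 to 53.1, 53.0 to 65.0 and 48.9 to 68.7 FPKM. Of 6 astrocyte markers 2 fell and of 6 microglial markers 1 fell. The sum of 4 liver genes lay between 26.2 and 39.7 FPKM in the Con libraries, was 24.5 in Mod replicate 3 and stayed at or under 0.676 elsewhere; the part of these lists in the members' changes was not tested.

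Without Con replicate 4 and 6-OHG replicate 2, 9 members were called in Mod against Con (25.7%, against 29.5% of all genes), all lower: Unc13a (-0.90, limma adjusted p = 3.7e-05), Erc1, Syt11, Syt4, Bsn (-0.40), Rims1 (-0.55), Pclo (-0.27), Stx1a (-0.59) and Syt7 (-0.18). In 6-OHG against Mod 11 were called (31.4%, against 21% of all genes): 10 higher, including Pclo (0.55), Bsn (0.53), Rims1 (0.44), Rims2 (0.29), Sv2b (0.54) and Syt1 (0.29), and Rab3a lower (-0.22). In 6-OHG against Con there were 3 (8.57%, against 29.1%): Unc13a (-0.73), Pclo (0.28) and Synj1 (0.23). Stx1a, a SNARE of the plasma membrane, read 28.2 FPKM in Con replicate 4 against 58.2 to 81.2 in the other Con libraries. The count in Mod against Con was also 7 without Con replicate 4 alone. These 2 libraries were singled out by the members' own values, both being the lowest of their groups for 17 members. Leaving them out raises the Con and 6-OHG means of those members. More falls against Con and more rises against Mod are thus partly built in, and these counts are not independent evidence. Mod replicates 1 and 5, with thalamus and brainstem sums of 62.0 and 65.7 FPKM, were kept.

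**Figure D4:**
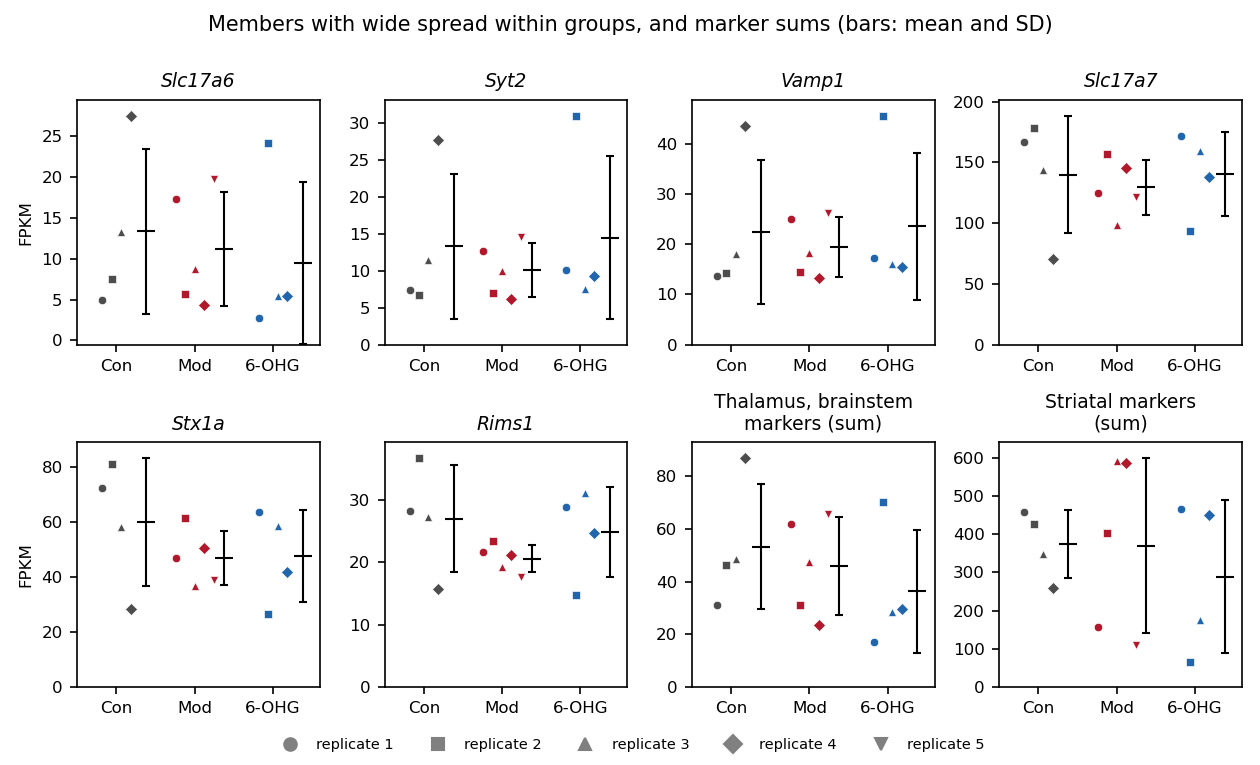
FPKM of 6 members with wide spread within groups and the summed FPKM of thalamus and brainstem and of striatal markers; symbols are libraries, shaped by replicate number, and bars are the mean and SD (the lower SD bar of Slc17a6 in 6-OHG passes below 0). Con replicate 4 and 6-OHG replicate 2 are the highest of their groups for Slc17a6, Syt2, Vamp1 and the thalamus and brainstem sum, and the lowest for Slc17a7, Stx1a and Rims1.

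The members are long genes, and the change in 6-OHG against Mod moved with length across the table. Their median exon length was 7031 bases, against 4102.5 over all tested genes. Across genes, which are not independent replicates and share these libraries, Spearman's rho of the change with exon length was 0.513 over the members and 0.457 over all genes in 6-OHG against Mod, and -0.157 and -0.165 in Mod against Con. Among genes with over 8 kb of exons, all 14 members had a positive change in 6-OHG against Mod, with a median of 0.23 and 3 called higher. The 2319 genes of that length in the whole table had a median of 0.12, with 484 called higher and 18 lower. At 2 to 4 kb the 8 members had a median of 0.01 and all genes -0.08. With the length and GC trend removed, the members' median change was 0.12 in 6-OHG against Mod (-0.005 for all genes). In Mod against Con it was -0.11 (-0.005 for all genes). Neither median was nearer to that of all genes than before the removal. Syt11, Synj1, Syt4 and Pclo were then called in 6-OHG against Mod, and the same 4 as before in Mod against Con. In 6-OHG against Con only Unc13a remained of the 4 called before, and Erc1 (-0.25, limma adjusted p = 0.0223), Dnm1 (0.20, limma adjusted p = 0.0340) and Syn2 (-0.25, limma adjusted p = 0.0372) were called as well.

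Of 81 further presynaptic genes, 78 were tested. In Mod against Con 3 rose and 14 fell (21.8% called), in 6-OHG against Mod 9 rose and 3 fell (15.4%), and in 6-OHG against Con 4 rose and 9 fell (16.7%). The shares of all genes called were 23.8%, 15.3% and 30.7%. By direction, 14%, 6.98% and 16.3% of all genes were called higher in these comparisons and 9.81%, 8.35% and 14.4% lower. Of this list, 17.9%, 3.85% and 11.5% were called lower. Synj2, the second synaptojanin gene, went from 8.62 ± 0.971 FPKM in Con to 4.47 ± 0.488 in Mod and 5.38 ± 0.634 in 6-OHG (SD, n = 4, 5 and 4), a change of -0.81 in Mod (limma adjusted p = 7.17e-05). Cltc, the clathrin heavy chain, changed by -0.28 in Mod against Con (limma adjusted p = 0.00386) and by 0.39 in 6-OHG against Mod (limma adjusted p = 0.00157). Pacsin1, an endocytic membrane-bending protein, changed by -0.35 (limma adjusted p = 0.00274) and 0.26 (limma adjusted p = 0.0217) in the same order. Ap2m1, a subunit of the clathrin adaptor, was 0.26 lower on the log2 scale in 6-OHG than in Con (-0.26, limma adjusted p = 0.0033).

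Among the regulators of fusion, Cadps2, which promotes dense-core vesicle release, changed by -0.61 in Mod against Con (limma adjusted p = 0.000659) and was still below Con in 6-OHG (-0.35, limma adjusted p = 0.0179). Stxbp5l, a tomosyn, rose by 0.85 in 6-OHG against Mod (limma adjusted p = 0.00123) and by 0.66 against Con (limma adjusted p = 0.00134). Its levels were 2.19 to 3.04 FPKM in Mod and 5.27 to 5.89 in 6-OHG, with no overlap. Syt3, another synaptotagmin, rose by 0.40 in Mod against Con (limma adjusted p = 0.00278). Syngr3, a vesicle protein of the synaptogyrin family, went from 63.5 FPKM in Con to 54.7 in Mod and 42.6 in 6-OHG, and fell in each comparison, with limma adjusted p of 0.0464, 0.00649 and 0.000215.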

How the data were processed

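Per the labels' protocols, 13 mouse brain RNA libraries were sequenced from both ends (150 bases each) on an Illumina instrument. The authors deposited 1 table of FPKM, a column for each library. HISAT2 2.2.1, featureCounts 1.5.0-p3, StringTie 2.1.6 and cutadapt 1.9 are named per the submitters' processing notes, without their roles, as are the builds GRCm38 and mm10. The annotation release, strand setting and read totals are not given in the sources used here. Only 17.5% to 21% of low values lay within 3% of the worth of whole reads (6% for an even spread), so no counts were recovered and no counting error is given.

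Values were taken as log2(FPKM + 1). Genes averaging 1 FPKM or more were fitted in limma 3.58.1 (R 4.3.3) with 1 mean per group and moderated variances with a trend on the mean, over all 13 libraries. P-values were adjusted over 13905 genes by Benjamini-Hochberg; called means adjusted p under 0.05. The scripts were tested on simulated data with independent noise for each gene, which held neither outlying libraries nor a length trend. Symbols and positions came from GENCODE M21 (GRCm38), with 137 IDs unmatched. Members and lists were chosen with earlier results of these data known. Per-library values are given for members called in at least 1 comparison, and of the further presynaptic list the 8 called genes with the smallest p are named. Alternatives were another pseudocount, minimum, scaling, moderation, a replicate block, a length and GC correction and each library left out.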

Additional observations from a re-analysis of the deposited data

Results flagged for a closer look

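Of 105 sets of a member in a group, 8 held a library far from the rest of its group by Dixon's criterion, which flags about 1 group in 20 by chance. Con replicate 4 was low for Sv2b (27.1 FPKM) and Syt1 (104 FPKM) and high for Vamp1 (43.6 FPKM). The 6-OHG replicate 2 library was high for Syt2 (31.0 FPKM), Vamp1 (45.6 FPKM) and Slc17a6 (24.2 FPKM). Syt11 was set apart in Con replicate 2 (116 FPKM, the lowest of its group) and in Mod replicate 1 (105 FPKM, the highest of its group).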

How the results depend on the processing

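No called member changed direction under any of the alternatives run. In Mod against Con, 7 members were called with sample weights and 9 without Con replicate 4 and 6-OHG replicate 2, and rescaling to equal sums gave a median of -0.16. In 6-OHG against Mod, 11 were called without those 2 libraries, and the median was 0.20 with equal sums and 0.20 after quantile normalization. In 6-OHG against Con, 2 of the 35 were called with no minimum level (3 of the 37 listed, with Rph3a), 2 with equal sums, and the median was 0.12 after quantile normalization. With 1 library left out, calls ranged from 4 to 7, 4 to 7 and 2 to 4 in the 3 comparisons, and medians from -0.17 to -0.072, 0.075 to 0.12 and -0.05 to 0.03. The count of 2 in 6-OHG against Con came without Con replicate 2, 6-OHG replicate 3 or 6-OHG replicate 4. Nothing in the labels says that replicate numbers pair the libraries. In their deviations from the group means, 3 of 12 same-numbered pairs correlated over 0.1, against 18 of 44 others. Such correlations cannot exclude a shared batch. With the replicate block 4, 4 and 3 members were called, and with the block and the length and GC trend removed 4, 0 and 1 were; in 6-OHG against Mod all genes then gave 74 calls. Over all genes, Mod against Con had 3304 calls, 2061 at a minimum of 5 FPKM, 2039 with the block and 2138 with block and trend removal. The 2131 calls in 6-OHG against Mod became 846 with the block, 995 with the trend removed and 1357 without 6-OHG replicate 4, and the 4268 in 6-OHG against Con became 2663 at 5 FPKM. Rescaling to equal sums turned the split of higher and lower calls from 1940 and 1364 to 1095 and 1603 in Mod against Con, and from 970 and 1161 to 1385 and 398 in 6-OHG against Mod (1307 and 965 after quantile normalization). The cause was not tested.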
